A study of Mus musculus with 6 samples.

Results

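Mmp2, Mmp3 and Mmp13 encode matrix metalloproteinases, and Timp3 encodes an inhibitor of these enzymes. They were examined in cultured mouse embryonic fibroblasts with and without cyclophilin D (CypD). The genes were selected by name, through the probes whose annotation gives 1 of these 4 symbols and no other, out of 7606 genes named in that way. There was 1 probe for Mmp2, 3 for Mmp3, 1 for Mmp13 and 3 for Timp3, 8 in all. The set was put together when earlier results of these arrays were known.

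The series holds 6 Illumina bead arrays of 45281 probes, 3 of wild type cells and 3 of CypD knockout cells, each group with replicates A, B and C. All cells were of C57BL/6 background and came from embryos at day 13.5, the knockout cells lacking CypD, the cyclophilin of mitochondria encoded by Ppif. They were grown in DMEM with fetal calf serum, and no treatment is given in the labels. The labels do not state how the knockout was made or whether the letters stand for separate embryos, litters or dishes, and the p-values therefore measure a spread among arrays that could be purely technical. The title of the series concerns CypD signals outside mitochondria, cell cycle progression and cell motility.

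Matrix metalloproteinases are zinc enzymes that cells release or hold at their surface to cut the extracellular matrix. They are made as inactive proenzymes, and tissue inhibitors of metalloproteinases (TIMPs) block the active forms. Mmp2 encodes gelatinase A, which cleaves denatured collagen and type IV collagen and is a usual product of fibroblasts. Mmp3 (stromelysin 1) cleaves proteoglycans, laminin and fibronectin and activates other proenzymes, and Mmp13 (collagenase 3) cuts fibrillar collagen. In fibroblasts, Mmp3 and Mmp13 are known as genes induced by inflammatory cytokines through the transcription factor AP-1. Timp3 differs from the other TIMPs in that it binds to the matrix, and it also inhibits several ADAM and ADAMTS proteases.

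Median array intensities lay between 223 and 251. Normalized values correlated across probes at 0.992 to 0.994 within groups and at 0.984 to 0.986 between them. Ppif stood lower in the 3 knockout arrays, at a mean log2 intensity of 12.26 against 13.63, a log2 change of -1.37 ± 0.066 (SE, adjusted p = 2.96e-09 by limma). The Ppif signal in knockout remained bright, at percentile 93.6 of all probes, against 97.7 in wild type. The labels do not say where its probe lies relative to the deleted part, and a probe outside that part does not read the deletion. Of 10 tested genes in a list of fibroblast markers, Col5a1 and Col1a1 were bright in both groups (percentiles 97.0 to 99.2 of all probes), while Vim and Dcn were dimmer (percentiles 43.9 to 68.0). Of the 10 markers 3 rose, 4 fell and 3 did not pass, where 43.6% of all genes were called by their brightest probe. Those that rose were Pdgfra (1.47), Col3a1 (1.13) and Pdgfrb (0.41), as log2 changes, and the largest fall was that of S100a4 (-1.62). The summed intensity of the 10, to which Col5a1 and Col1a1 gave most, ranged from 64420 to 70043 in wild type and from 55346 to 59551 in knockout.

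On the deposited per-array intensities the groups did not overlap for any named probe of the 4 genes. Such separation was common: on normalized values it held for 54.7% of named probes and 33.3% of all tested probes. For Mmp2 the deposited intensity was 2821, 2559 and 2673 on wild type arrays A, B and C, and 11798, 11191 and 12066 on the knockout arrays. Every knockout array was thus above every wild type array, and within each group the highest value was at most 1.10 times the lowest. After background correction (normexp, offset 50) and quantile normalization, the log2 intensity of Mmp2 was 11.29, 11.24 and 11.35 in wild type and 13.56, 13.50 and 13.60 in knockout. The mean rose from 11.29 ± 0.054 to 13.55 ± 0.052 (SD, n = 3 each).

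That is a log2 change, knockout minus wild type, of 2.26 ± 0.064 (SE), with a 95% confidence interval of 2.12 to 2.40, or 4.78-fold (limma with Benjamini-Hochberg adjustment over all 27168 tested probes, adjusted p = 1.48e-11). The groups were 2.15 apart on the log2 scale at their nearest arrays, against SDs of 0.052 to 0.054 within them. Mmp2 was the member that rose, and its change was the 68th largest upward of all tested probes. Among the group means of all probes, its mean moved from percentile 89.5 in wild type to 97.5 in knockout, so both groups lay well inside the bright part of the array.

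**Figure D1:**
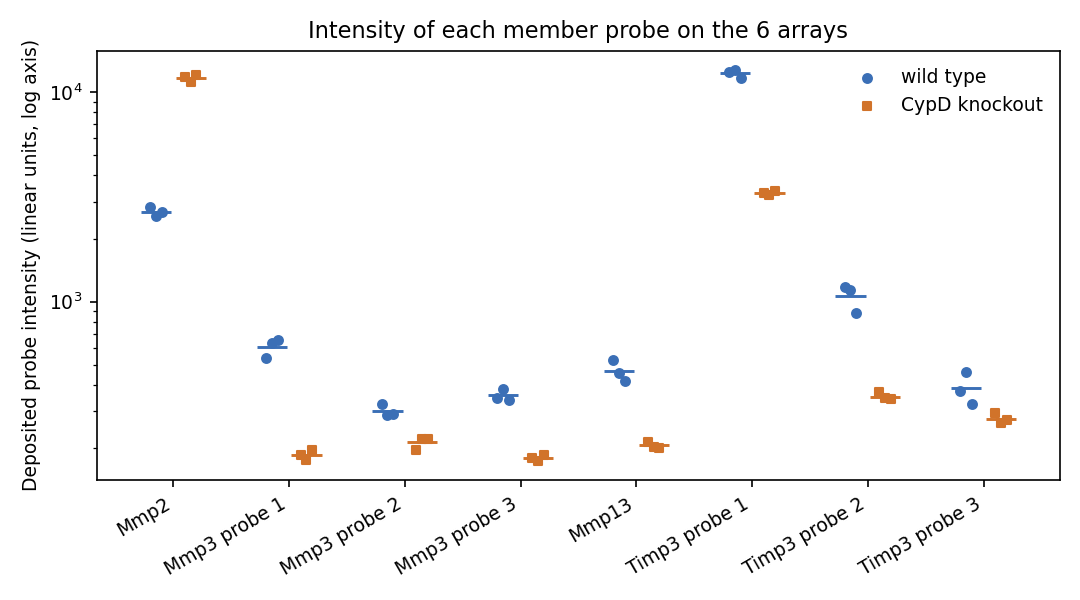
Deposited intensity (linear units on a log axis) of the 8 probes of Mmp2, Mmp3, Mmp13 and Timp3 on each of 6 arrays, with circles for wild type, squares for CypD knockout and short lines for group means (n = 3); probes of 1 gene are numbered from the highest mean log2 intensity. Mmp2 is higher in knockout and the other 7 probes are lower. In none of the 8 do the groups overlap, as held on normalized values for 54.7% of named probes.

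Across the array, 20.0% of tested probes were called changed at an adjusted p under 0.05, 9.78% upward and 10.2% downward. Among the 10651 tested probes that carry a gene name the share was 42.1%. The annotation names probes of the authors' processed table, and that table holds probes that varied over the arrays. Named probes were called upward in 20.5% of cases and downward in 21.6%. All 8 named probes of the 4 genes were tested and called, 1 upward and 7 downward. A probe of these genes outside the processed table would carry no name here and was not read. The agreement among a gene's probes was therefore partly set by a choice of probes that varied on these same arrays. The groups did not overlap in any of the 8, as held for 54.7% of named probes (33.3% of all tested). The change was at least 2-fold in 6 of the 8 and at least 3-fold in 5, against 5.64% and 2.18% of named probes that were called and as large. The count is not support by itself, because the 4 genes were chosen with earlier results of these arrays known. Mmp3 and Timp3 also give 3 probes each, which are not separate genes. In addition, 3 of the 8 (Mmp3 probes 1 and 3 and the Mmp13 probe) had a knockout mean below the level of the filter on dim probes. Those 3 passed it through their wild type signal. In the processed table, which decides what is named, no probe had a highest value under 273. The remaining Mmp3 probe, ILMN_2704576, had processed values of 196 to 225 in knockout and 278 to 300 in wild type. It thus reached that level through its wild type signal only.

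**Figure D2:**
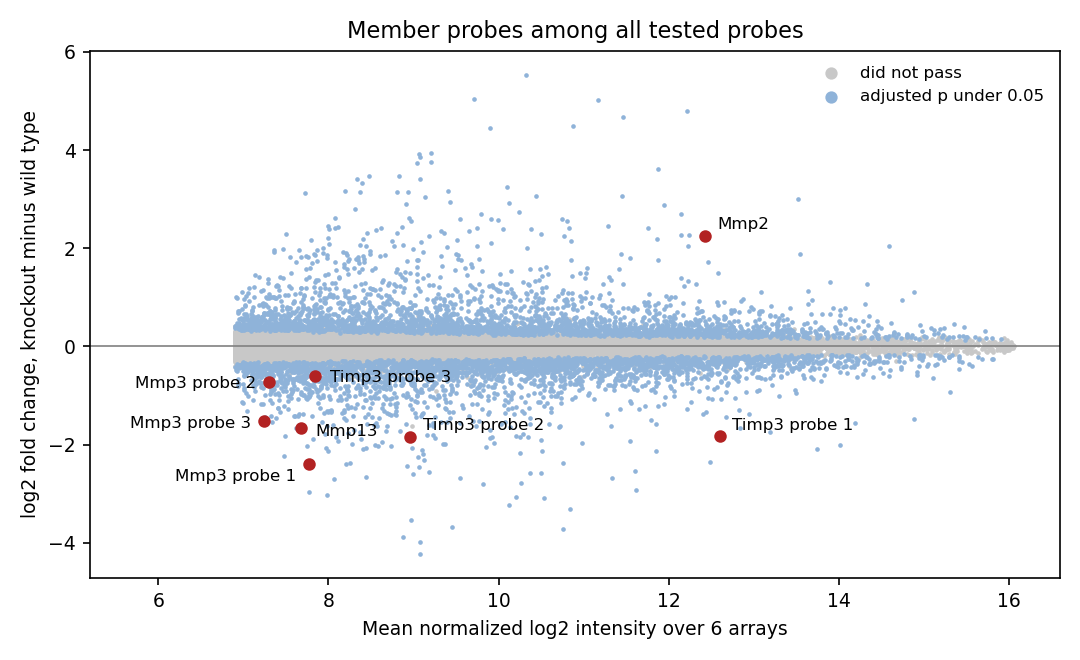
Log2 fold change (knockout minus wild type) against mean normalized log2 intensity over 6 arrays for the 27168 tested probes, with called probes in blue, others in grey and the 8 probes of Mmp2, Mmp3, Mmp13 and Timp3 in red. Mmp2 and the first Timp3 probe lie among bright probes, at 2.26 and -1.83, while the Mmp3 and Mmp13 probes lie at the dim end.

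Mmp3 was lower in knockout cells by all 3 of its named probes. Its first probe (ILMN_2899041) read 540, 636 and 656 on wild type arrays A, B and C, and 186, 176 and 196 on the knockout arrays, as deposited intensities. The knockout arrays were all below 200, with no overlap. On the normalized log2 scale this was 8.67, 9.04 and 9.20 against 6.56, 6.45 and 6.70, so wild type A was the lowest of its group. The mean fell from 8.97 ± 0.28 to 6.57 ± 0.13 (SD, n = 3 each), a log2 change of -2.40 ± 0.13 (SE, adjusted p = 1.39e-08 by limma) or 5.29-fold.

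The other Mmp3 probes were dimmer in wild type and gave smaller differences. ILMN_2753809 read 348, 384 and 339 in wild type and 180, 175 and 186 in knockout, a log2 change of -1.52 ± 0.11 (SE, adjusted p = 2.46e-07 by limma). ILMN_2704576 read 327, 290 and 290 against 196, 222 and 222, a log2 change of -0.72 ± 0.12 (SE, adjusted p = 5.92e-04 by limma). The 95% confidence intervals of the 3 probes, -2.69 to -2.11, -1.77 to -1.28 and -0.98 to -0.46, all lie below 0. In knockout the 3 probes lay at percentiles 17.4, 11.9 and 42.1 of all probes, with mean log2 intensities of 6.57, 6.48 and 6.94, while their wild type means ran from 7.65 for the last to 8.97 for the first. The differences between the probes in the size of the fall are therefore given without comparison. The deposited files hold no detection p-value and no control probe, so whether Mmp3 was above background in knockout cells is not known, and its fold changes depend on the background correction.

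Mmp13 was also lower in knockout cells. Its single named probe read 527, 455 and 417 on wild type arrays A, B and C, and 215, 203 and 200 on the knockout arrays, as deposited intensities. The lowest wild type array stood clear of the highest knockout array, by 1.48 on the normalized log2 scale. Mean log2 intensity fell from 8.50 ± 0.10 to 6.85 ± 0.099 (SD, n = 3 each), a log2 change of -1.65 ± 0.11 (SE, 95% confidence interval -1.88 to -1.43, adjusted p = 5.20e-08 by limma) or 3.14-fold. The knockout signal lay at percentile 37.0, with the same limit as for Mmp3. Within wild type, array A was the highest for Mmp13, at 8.62 on the normalized log2 scale, and the lowest for the first Mmp3 probe. The Mmp3 probes did not share this order: by ILMN_2704576 array A stood at 7.70, between 7.55 in B and 7.71 in C.

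Mmp3 and Mmp13 belong to a run of Mmp genes on mouse chromosome 9. In the RefSeq table of assembly GRCm38.p6, Mmp13 comes first, then Mmp12, Mmp1b, Mmp3, Mmp1a, Mmp10, Mmp8, Mmp27, Mmp20 and Mmp7. Of these 10 genes, Mmp3 and Mmp13 were the 2 with a named and tested probe, and both fell. No value is given here for the other 8, so whether the fall extends along the run was not tested. Mmp2 lies on chromosome 8, where it overlaps the gene model Gm45472, which had no named and tested probe, and Timp3 lies on chromosome 10.

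RefSeq promoter sequences are shown for Mmp3, Mmp13 and Timp3, which all fell in knockout cells. Promoter entries were matched by symbol for these 3 of the 4 genes. Each is the 250 bases before the annotated start on the plus strand of GRCm38.p6, written 5′ to 3′. They span chr9:7445572-7445821 for Mmp3, chr9:7272264-7272513 for Mmp13 and chr10:86300162-86300411 for Timp3. Capitals mark matches, on either strand, to the AP-1 motif (TGAGTCA or its reverse complement TGACTCA), the core of Ets sites (AGGAAG), the GC box (GGGCGG) and the TATA motif (TATAAA).
Mmp3: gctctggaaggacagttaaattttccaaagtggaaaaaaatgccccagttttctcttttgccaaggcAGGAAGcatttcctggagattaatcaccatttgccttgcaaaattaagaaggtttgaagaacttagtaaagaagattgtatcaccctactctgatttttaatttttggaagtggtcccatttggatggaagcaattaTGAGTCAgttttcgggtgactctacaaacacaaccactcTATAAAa
Mmp13: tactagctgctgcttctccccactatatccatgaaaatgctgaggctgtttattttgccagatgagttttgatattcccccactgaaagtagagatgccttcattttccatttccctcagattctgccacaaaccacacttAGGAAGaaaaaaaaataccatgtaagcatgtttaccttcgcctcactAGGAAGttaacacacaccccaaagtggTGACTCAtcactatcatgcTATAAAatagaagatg
Timp3: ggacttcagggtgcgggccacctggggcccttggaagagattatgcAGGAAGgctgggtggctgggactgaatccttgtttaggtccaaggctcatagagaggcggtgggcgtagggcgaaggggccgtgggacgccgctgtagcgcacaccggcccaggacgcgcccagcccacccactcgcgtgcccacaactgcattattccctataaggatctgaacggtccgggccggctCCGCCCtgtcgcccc

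The Mmp3 and Mmp13 windows each hold 1 AP-1 match, 40 to 46 bases before the start in Mmp3 and 29 to 35 bases before it in Mmp13. Each also holds 1 TATA match between the AP-1 match and the start, at 2 to 7 bases in Mmp3 and 11 to 16 in Mmp13. Of all 32851 promoter windows of this length, 4.46% hold an AP-1 match, 12.4% a TATA match and 0.721% both. The Ets core occurs once in Mmp3, 178 to 183 bases before the start, and at 2 places in Mmp13, as in 29.5% of windows. No 2 of these matches overlap. The Timp3 window has no AP-1 or TATA match in these letters but 1 Ets core, 199 to 204 bases before the start, and 1 GC box, 10 to 15 bases before it, a motif in 32.7% of windows. Its bases are 65.6% G or C, against 37.6% in Mmp3 and 40.4% in Mmp13. A match describes the letters in the window, no binding was measured, and the part of these letters in the falls was not tested.

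Timp3 fell in knockout cells by all 3 of its named probes. The brightest (ILMN_2741096) read 12454, 12682 and 11619 on wild type arrays A, B and C, and 3313, 3225 and 3378 on the knockout arrays, as deposited intensities. The knockout arrays lay close together, the highest only 1.05 times the lowest. Mean log2 intensity fell from 13.52 ± 0.071 to 11.69 ± 0.012 (SD, n = 3 each), a log2 change of -1.83 ± 0.063 (SE, 95% confidence interval -1.97 to -1.70, adjusted p = 7.76e-11 by limma) or 3.56-fold. The signal stayed in the bright part of the array in both groups, at percentiles 97.4 and 91.2.

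A dimmer Timp3 probe, ILMN_2614759, also fell. It read 1173, 1142 and 887 in wild type and 369, 347 and 342 in knockout, a log2 change of -1.84 ± 0.10 (SE, adjusted p = 1.56e-08 by limma). Its value lay close to that of the brightest probe at this offset, but was -1.53 against -1.80 with no background correction and -1.98 against -1.84 with an offset of 16. The dimmest, ILMN_1232928, read 375, 462 and 326 in wild type and 295, 264 and 273 in knockout, where wild type B stood apart from A and C and the groups came within 0.30 of each other on the log2 scale. Its log2 change of -0.59 ± 0.14 (SE, adjusted p = 0.00618 by limma) had a 95% confidence interval of -0.89 to -0.30. Without wild type B the log2 change of this probe was -0.43 (adjusted p = 0.0228 by limma), and without knockout B it was -0.55 (adjusted p = 0.0369 by limma). Timp3 lies within the bounds of another gene in the RefSeq table, Syn3, which encodes a synapsin of nerve terminals. The Syn3 probe was dim, at 7.46 ± 0.049 and 7.45 ± 0.21 (SD, n = 3 each), with a log2 change of -0.01 ± 0.12 (adjusted p = 0.962 by limma).

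The size of these changes depended on the background correction where a probe was dim, and the direction and the call did not. With no background correction the first Mmp3 probe changed by -1.66 and with an offset of 16 by -2.94, on either side of -2.40. For Mmp13 the matching values were -1.12 and -2.01. Mmp2 and the brightest Timp3 probe moved little over 16 alternative settings, from 2.20 to 2.29 and from -1.88 to -1.79. The 8 probes kept their direction and an adjusted p under 0.05 in all 123 alternative fits.

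**Figure D3:**
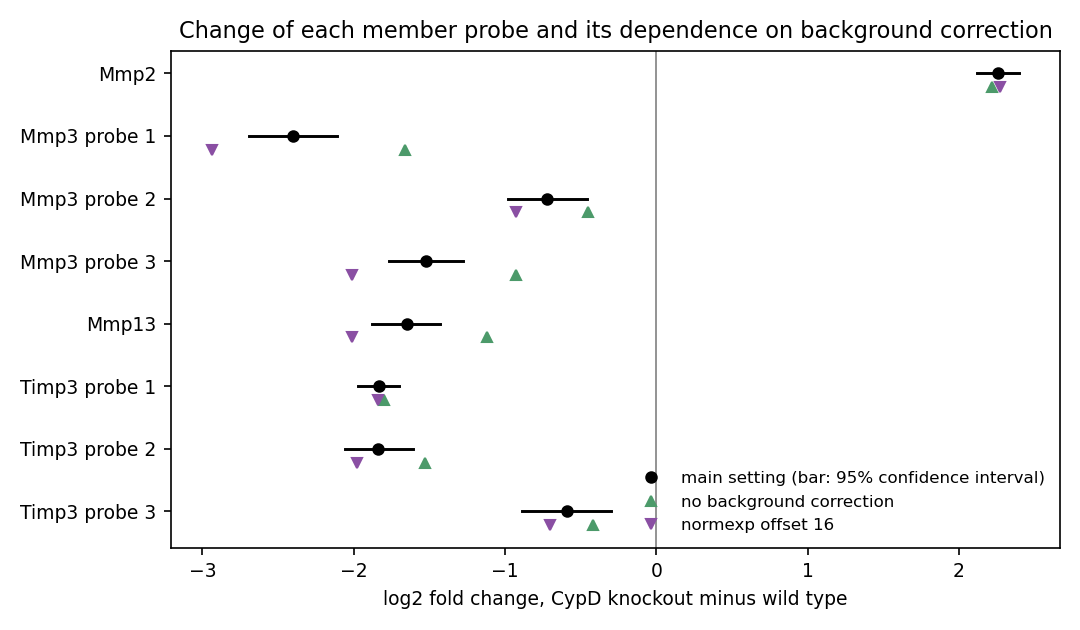
Log2 fold change (knockout minus wild type) of the 8 probes, with circles for the main setting, bars for its 95% confidence interval, upward triangles for no background correction and downward triangles for a normexp offset of 16. Mmp2 and the first Timp3 probe hardly move between settings, whereas the first Mmp3 probe runs from -1.66 to -2.94.

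Of the matrix metalloproteinases other than Mmp2, Mmp3 and Mmp13, 3 rose, 1 fell and 2 did not pass among 6 tested by name (median log2 fold change 0.23, against 0.01 for all 7605 genes tested by their brightest probe, of which 43.6% were called, 21.8% upward and 21.8% downward). With Mmp2, Mmp3 and Mmp13 included, 9 of 23 listed were tested, of which 4 rose, 3 fell and 2 did not pass (median -0.01). Mmp16, a membrane-type enzyme that can activate the Mmp2 proenzyme, read 358, 286 and 306 in wild type and 994, 895 and 1011 in knockout. This was a log2 change of 2.05 ± 0.11 (SE, adjusted p = 7.19e-09 by limma), and its other probe gave 1.91. Mmp23, a small membrane-bound member, read 322, 254 and 240 against 551, 517 and 550, a log2 change of 1.42 ± 0.12 (adjusted p = 7.20e-07 by limma). Mmp11, or stromelysin 3, which cleaves matrix poorly, rose by 0.47 ± 0.10 (adjusted p = 0.00427 by limma).

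Mmp9, the other gelatinase, went the opposite way to Mmp2. It read 367, 380 and 328 in wild type and 255, 250 and 244 in knockout, a log2 change of -0.69 ± 0.10 (SE, adjusted p = 1.96e-04 by limma), with no overlap between the groups. Mmp24, a membrane-type enzyme best known from the nervous system, changed by -0.24 ± 0.086 on the log2 scale without passing (adjusted p = 0.062 by limma). It passed under 4 of the alternatives, among them median scaling (-0.29, adjusted p = 0.0376 by limma). Mmp28, or epilysin, had mean log2 intensities of 8.50 ± 0.20 in wild type and 8.50 ± 0.12 in knockout (SD, n = 3 each). Its log2 change was -0.01 ± 0.11 (SE, adjusted p = 0.978 by limma). Mmp14, the main activator of the Mmp2 proenzyme on fibroblasts, had no named and tested probe here.

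**Figure D4:**
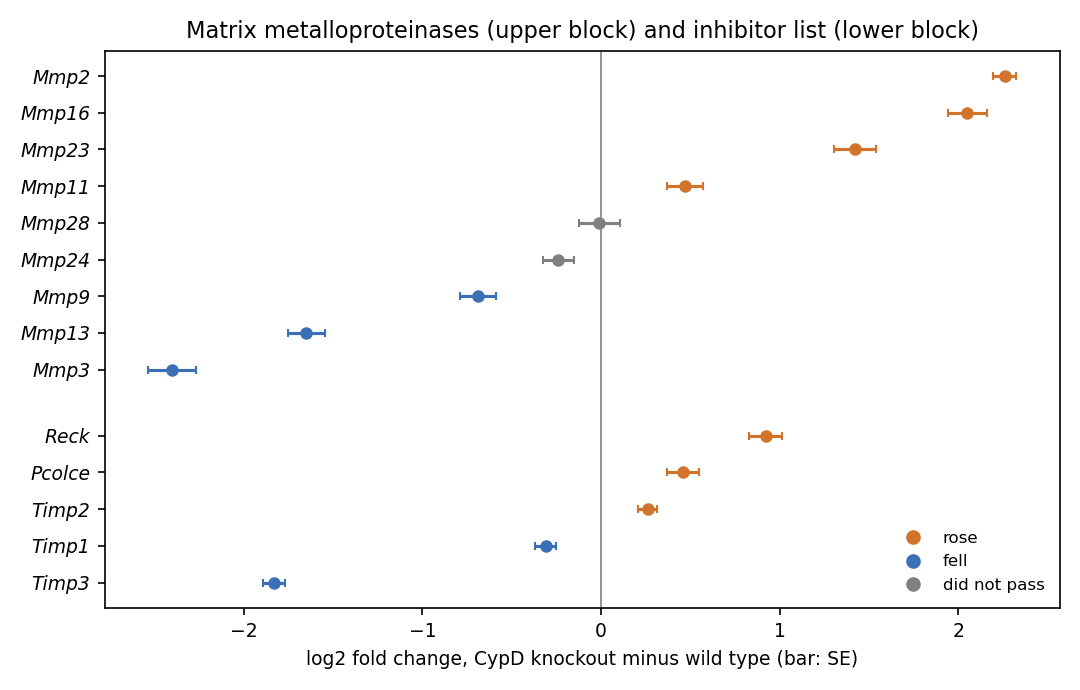
Log2 fold change (knockout minus wild type) with its SE for the 9 tested matrix metalloproteinases (upper block) and the 5 tested members of the inhibitor list (lower block), each by its brightest tested probe; orange rose, blue fell, grey did not pass. The changes run from -2.40 for Mmp3 to 2.26 for Mmp2, and within the inhibitor list from -1.83 for Timp3 to 0.92 for Reck.

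Timp3, which was chosen with earlier results of these arrays known, had the largest change of the 5 tested genes in the inhibitor list. In this list 3 rose, 2 fell and 0 did not pass, where 43.6% of all genes were called, 21.8% in each direction. The median log2 fold change was 0.26 with Timp3 and 0.36 without it (5 of 11 listed genes tested). The 2 other TIMPs tested changed by less. Timp1 read 28055, 28423 and 28527 in wild type and 20209, 21417 and 21502 in knockout, a log2 change of -0.31 ± 0.060 (SE, adjusted p = 0.00183 by limma). Timp2, which blocks Mmp2 and also takes part in activating it together with Mmp14, had a log2 change of 0.26 ± 0.053 (SE, adjusted p = 0.00235 by limma). Reck, a membrane-anchored inhibitor of Mmp2, Mmp9 and Mmp14, read 430, 401 and 371 against 693, 607 and 646, a log2 change of 0.92 ± 0.091 (SE, adjusted p = 4.92e-06 by limma), with 0.89 by its other probe. The rises and the medians of this list also count Pcolce, although it is an enhancer of procollagen processing that shares a domain with the TIMPs. It rose by 0.46 ± 0.090 (adjusted p = 0.00209 by limma).

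The ADAM and ADAMTS proteases, some of which Timp3 inhibits, changed in both directions. Of 15 tested members (35 listed) 4 rose, 6 fell and 5 did not pass, with a median log2 change of -0.14. The 43.6% of all genes that were called, 21.8% in each direction, is the background of this count and of those of the lists that follow. Adamts12, a secreted protease of cartilage matrix, rose by 1.08 ± 0.086 (SE, adjusted p = 5.20e-07 by limma) and the membrane sheddase Adam9 by 0.75 ± 0.073 (adjusted p = 3.87e-06 by limma). Adamts4, an aggrecanase that Timp3 inhibits, fell by 0.52 ± 0.084 (adjusted p = 4.87e-04 by limma) and Adam15, a membrane protease, by 0.47 ± 0.076 (adjusted p = 4.60e-04 by limma).

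The plasminogen activation system generates the plasmin that can activate metalloproteinase proenzymes. In the list drawn up for it, 3 of 7 tested genes rose, 1 fell and 3 did not pass (median 0.13, 12 listed). The rises include Serpinf1, although it is a secreted serpin known for limiting vessel growth and not for blocking proteases. It rose by 2.05 ± 0.066 (SE, adjusted p = 4.54e-11 by limma). Plat, the tissue plasminogen activator, rose by 0.73 ± 0.069 (adjusted p = 2.77e-06 by limma). The fall was that of Plaur, the receptor of urokinase, by 0.29 ± 0.068 (adjusted p = 0.00698 by limma).

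Of the transcription factors known to act at protease promoters, 3 rose, 6 fell and 4 did not pass among 13 tested (median -0.21, 17 listed). Junb, a subunit of AP-1, fell by 0.48 ± 0.070 (SE, adjusted p = 1.68e-04 by limma), and Ets2 by 0.92 ± 0.064 (adjusted p = 1.39e-07 by limma). The Ets family members Etv1 and Etv5 rose by 1.04 ± 0.12 (adjusted p = 2.53e-05 by limma) and 0.46 ± 0.093 (adjusted p = 0.00246 by limma), the latter with another probe at 0.16 that did not pass. Of the listed cytokines, growth factors and receptors, 2 of 13 tested rose, 5 fell and 6 did not pass (median -0.14, 23 listed). Tgfb1, Tgfb2, Tgfb3, Tgfbr1 and Tgfbr2 are among them, and the genes were not divided by whether they raise or lower proteases. The growth factors Pdgfb and Pdgfa fell by 2.57 ± 0.10 (SE, adjusted p = 5.04e-10 by limma) and 1.06 ± 0.076 (adjusted p = 1.68e-07 by limma). Osmr, a receptor subunit for oncostatin M, rose by 0.94 ± 0.071 (adjusted p = 2.81e-07 by limma), and the receptor Tgfbr1 by 0.34 ± 0.066 (adjusted p = 0.00223 by limma), with 0.08 by a probe that did not pass.

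Matrix proteins and surface partners of these enzymes were split, with 8 rises, 7 falls and 11 that did not pass among 26 tested (median -0.04, 36 listed). The rises include Col5a2, at 0.27 by its brightest probe, while its other probes were called downward, at -0.79 and -0.55. With the mean over a gene's probes, 7 rose and 9 fell. Col2a1, the collagen of cartilage and a substrate of Mmp13, rose by 2.28 ± 0.098 (SE, adjusted p = 8.72e-10 by limma), and the proteoglycan Vcan by 1.25 ± 0.089 (adjusted p = 1.67e-07 by limma). The other Vcan probes rose by less, by 0.59, 0.36 and 0.58. Col1a1, the main fibrillar collagen of fibroblasts, fell by 0.63 ± 0.056 (adjusted p = 1.76e-06 by limma), and Cd44, a hyaluronan receptor that can hold metalloproteinases at the cell surface, by 0.42 ± 0.080 (adjusted p = 0.00163 by limma). Of the 3 other Cd44 probes 2 did not pass.

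Markers of other cells that make these proteases were also read. Of 13 leukocyte markers 2 were tested and 0 passed in the limma test, although both had an unadjusted p under 0.05. Cd14 had a log2 change of -0.25 (adjusted p = 0.0824 by limma) and Coro1a one of 0.30 (adjusted p = 0.120 by limma). The summed normalized intensity of these markers ran from 864 to 1066 in wild type and from 879 to 902 in knockout, so the ranges overlapped. Of 13 cartilage and bone markers, among whose cells Mmp13 is made during endochondral growth, 3 were tested. Their summed intensity, to which Sox9 gave most, ran from 6151 to 7489 in wild type and from 15345 to 17343 in knockout. Col2a1 and Sox9 rose, whereas Col10a1, the marker of hypertrophic cartilage, fell by 0.74 ± 0.12 (SE, adjusted p = 5.88e-04 by limma). Of 8 endothelial markers 2 were tested, with sums, to which Flt1 gave most, of 1553 to 1661 in wild type and 1990 to 2128 in knockout. Flt1 rose, with a log2 change of 0.44 ± 0.075 (adjusted p = 7.11e-04 by limma), whereas Esam, the dimmer marker, had a change of -0.38 and did not pass (adjusted p = 0.0603 by limma). Of 8 epithelial markers 2 were tested, with sums of 542 to 622 and 441 to 497. Krt19 fell by 0.35 (adjusted p = 0.0198 by limma), and Cdh1 had a change of -0.09 and did not pass. The part of these markers' cells in the changes of the 4 genes was not tested, and in such cultures fewer cells of a type and less RNA per cell cannot be told apart.

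For each gene, the 3 named genes with the most similar course over the 6 arrays were found by the root-mean-square difference of mean-centred log2 profiles, among 7601 genes, and that difference is given in log2 units. With 3 arrays in each of 2 groups, this measure follows mainly the size of the group difference. Nearest to Mmp2 were Mest (0.063), Nid2 (0.073), a basement membrane nidogen, and Rspo2 (0.074), an enhancer of Wnt signals. Nearest to the first Mmp3 probe were Angptl4 (0.15), Ccl9 (0.15), a chemokine, and Crabp2 (0.15), which carries retinoic acid. Nearest to Mmp13 were Arap2 (0.058), the growth factor Fgf10 (0.059) and Thsd1 (0.072). Nearest to the brightest Timp3 probe were Chst7 (0.067), Fam20a (0.068) and the linker histone H1f2 (0.070). Each was read from 1 probe, and other probes, where present, changed in the same direction but not always by as much. Their log2 changes were 1.86 and 0.77 against 2.18 for Mest, and -0.57 against -1.79 for Fam20a. They were -1.16 against -1.57 for Fgf10, -1.89 against -1.71 for Thsd1 and -1.66 against -1.74 for H1f2. These lists depended on the background correction: with none, 0 of the 3 were shared for Mmp2, Mmp3 and Mmp13 and 2 for Timp3.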

How the data were processed

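Per the file headers, each deposited per-array file gives 1 linear intensity per probe; the authors also deposited processed intensities for 12534 probes. Per the submitters' processing notes the software was BeadStudio 3.0; how background was handled is not stated. The processed values were 0.981 to 1.01 times the quantile-normalized deposited intensities, and each listed probe had a highest value at least 1.20 times its lowest. That highest value was never under 273.

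Intensities were background-corrected (normexp, offset 50), quantile-normalized and tested on the log2 scale with limma 3.58.1 (R 4.3.3; lmFit, eBayes with intensity trend). Probes above the 40th percentile of mean log2 intensity were kept. Adjusted p-values are two-sided Benjamini-Hochberg values over all 27168 probes kept, called under 0.05. Errors of fold changes are limma SEs. The offset compresses fold changes of dim probes. The 6 arrays limit the precision.

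The annotation named 10653 probes by 1 gene, 5 by several and 1876 of the processed table by none; 10643 symbols were matched through Entrez identifiers to RefSeq (GRCm38.p6), which also gave promoters. A gene other than the 4 was read from its brightest tested probe.

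The rule named every tested metalloproteinase and inhibitor, from each other pathway list the 2 called members of lowest p in each direction, and 3 most similar genes per member. The cell type markers (apart from Col1a1 and Col2a1), Col5a2 and Syn3 were named outside it after their values were seen. Members and lists were chosen with earlier results of these data known. The limma fit was tested on simulated normalized log2 values, and background correction and normalization were not part of that test. Alternatives covered background, normalization, filter, variance model, array weights, the processed table, the replicate letter as a block, the mean over a gene's probes, and each array left out.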

Additional observations from a re-analysis of the deposited data

How the results depend on the processing

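All 123 alternative fits of the 8 probes of Mmp2, Mmp3, Mmp13 and Timp3 kept the direction and the call. A filter at the 70th percentile removed the 3 Mmp3 probes, the Mmp13 probe and the dimmest Timp3 probe, so it gave no value for them. Leaving out 1 array at a time gave 2.23 to 2.29 for Mmp2, -2.55 to -2.29 for the first Mmp3 probe, -1.70 to -1.59 for Mmp13 and -1.85 to -1.79 for the brightest Timp3 probe. The number of called probes on the whole array, 5423, ran from 4079 to 5903 when 1 array was left out, and from 4616 to 5830 under the other settings. Median scaling called 2283 upward and 3119 downward, against 2656 and 2767. Arrays of the same letter deviated from their group means with correlations of 0.101, -0.090 and 0.075 across probes, so the letters were not taken to pair the arrays. With the letter as a replicate block, 5273 probes were called, Mmp2 stood at 2.26 (adjusted p = 5.83e-10 by limma) and the first Mmp3 probe at -2.40, and none of the 8 calls changed. Of 238 counts of list members that rose or fell, 2 differed by over 1.5 times: the metalloproteinases that fell, Mmp3 and Mmp13 included, numbered 1 and not 3 with the filter at the 70th percentile, which tested fewer genes, and the plasminogen genes that fell numbered 2 and not 1 without wild type B. Of 654 alternative fits of the genes that the rule named from the pathway lists and by likeness, 650 kept their call. The remaining 4 were those in which Mmp24 passed. Without detection p-values, signal over background could not be set for the dim Mmp3 and Mmp13 probes.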
